A study of Mus musculus with 2 samples.

Results

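The cells described here are melanocytes of cultured mouse epidermis with a high level of pigment-cell RNA. They were chosen by the summed level of Dct, Pmel, Mlana and Tyrp1, at 20000 CPM or more, where CPM is the unique molecular identifiers (UMIs) of a gene in proportion to the total of its cell, scaled to 1e6. This rule chose 78 of 3686 cells: 22 of 1926 in the library labelled Bap1 wild type and 56 of 1760 in the library labelled Bap1 knockout. Bap1 encodes a nuclear deubiquitinase that acts on histone H2A. Epidermal cells were taken at postnatal day 1 from C57BL/6 mice carrying Rosa26-CreERT2, a ubiquitously placed Cre recombinase that 4-hydroxytamoxifen activates. The wild-type pool came from 11 neonates with Rosa26-CreERT2 alone, and the knockout pool from 9 neonates that were also Bap1fl/fl. Both cultures, control included, had 100 nM 4-hydroxytamoxifen for 4 days and 3 further days without it, 7 days in all, in M254 medium with a human melanocyte growth supplement. CreERT2 at Rosa26 is not restricted to melanocytes, so the floxed allele could be recombined in keratinocytes of the knockout dish as well. Each pool gave 1 droplet library, so animals cannot be separated, no test between the groups was possible, and intervals below are exact 95% intervals that cover counting error only.

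Melanocytes arise from the neural crest, settle in the epidermis and hair follicle, and make melanin in lysosome-related organelles called melanosomes. The enzymes tyrosinase (Tyr), Tyrp1 and dopachrome tautomerase (Dct) build the pigment on fibrils of Pmel, and the transcription factor Mitf, acting with Sox10 and Pax3, is known to activate these genes through E-box sequences in their promoters. Bap1 RNA itself did not check the labels: melanocytes labelled wild type held 4 UMIs of it (15.3 CPM), those labelled knockout 17 UMIs (26.3 CPM), and the other cells 14.1 and 19.8 CPM. A 3′ tag can lie outside the floxed exons, whose positions no label states. Every direction below therefore rests on the labels, and wild-type and knockout melanocytes are named by them.

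Promoters of the melanin enzymes and of the potassium channel gene Kcnj13 are shown because the enzymes define these cells and Kcnj13 had the largest ratio between the libraries among the genes named by rule. Each sequence runs 5′ to 3′ on the gene's strand and comes from the RefSeq table of build GRCm38.p6. Capitals mark the E-box letters CATGTG, or CACATG where they lie on the other strand. The windows are the 250 bases before the start, at chr7:87493513-87493762 (minus strand) for Tyr, chr14:118052247-118052496 (minus) for Dct and chr1:87394730-87394979 (minus) for Kcnj13. For Tyrp1, 30 bases around the match are given, chr4:80834155-80834184 (plus strand), since an exon of a longer transcript reaches into its window.
Tyr: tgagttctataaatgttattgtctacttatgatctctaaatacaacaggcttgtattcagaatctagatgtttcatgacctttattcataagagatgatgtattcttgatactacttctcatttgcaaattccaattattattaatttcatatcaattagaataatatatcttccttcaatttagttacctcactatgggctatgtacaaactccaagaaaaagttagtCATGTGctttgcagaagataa
Tyrp1: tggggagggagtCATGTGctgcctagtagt
Dct: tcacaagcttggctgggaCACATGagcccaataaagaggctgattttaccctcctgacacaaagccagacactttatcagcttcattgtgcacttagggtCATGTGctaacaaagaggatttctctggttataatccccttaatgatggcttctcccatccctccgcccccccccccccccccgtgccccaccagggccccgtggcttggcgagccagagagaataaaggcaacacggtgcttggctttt
Kcnj13: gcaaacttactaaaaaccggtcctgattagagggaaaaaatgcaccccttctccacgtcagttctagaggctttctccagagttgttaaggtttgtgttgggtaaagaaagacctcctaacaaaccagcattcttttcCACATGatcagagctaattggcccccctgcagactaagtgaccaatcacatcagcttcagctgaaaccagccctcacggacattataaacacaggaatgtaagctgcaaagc
The letters began 21 bases before the start in Tyr, 46 in Tyrp1, 232 and 150 in Dct, and 112 in Kcnj13. CATGTG on either strand stood in 12.3% of the 32851 promoter windows of the table, and the palindrome CACGTG in 6.02%. Of the 43 genes on the melanin and melanosome lists, 35 had an entry, with 38 promoters in all. CATGTG was present in 10 of these (26.3%) and CACGTG in 9 (23.7%). At least 1 of the 2 stood in 18 (47.4%), against 17.6% of all windows. A match describes letters and not a bound site.

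Melanocytes took a larger share of the cells in the library labelled knockout. They were 1.14% (Clopper-Pearson 0.717 to 1.72) of cells labelled wild type and 3.18% (2.41 to 4.11) of cells labelled knockout, a ratio of 2.79 (1.67 to 4.79). These cells lay at the shallow end of both libraries. Total UMIs ran from 10233 through a median of 10993 to 19763 in wild-type melanocytes and from 8845 through 10317 to 21074 in knockout melanocytes. The other cells had medians of 37711.5 and 34452. No melanocyte reached 25000 UMIs, among 1314 and 1180 cells that did. With 3 counts as the limit that a count of 0 allows, the shares could be up to 0.228% and 0.254%; the Clopper-Pearson upper bounds were 0.280% and 0.312%.

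**Figure D1:**
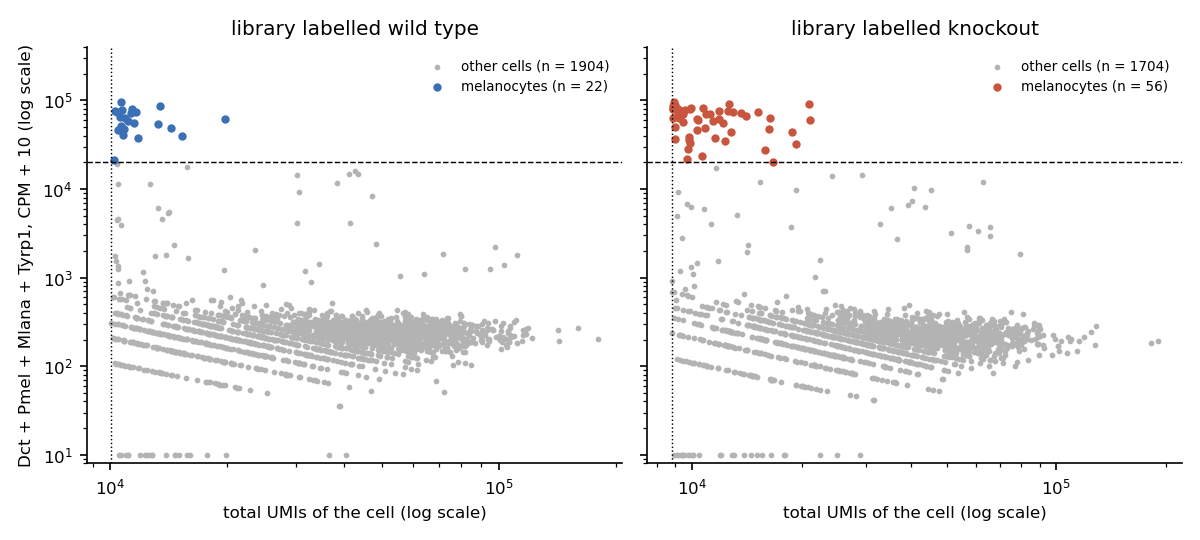
Summed CPM of Dct, Pmel, Mlana and Tyrp1 plus 10 (log axis) against total UMIs (log axis), 1 point per cell, in each library; the dashed line is the level of 20000 CPM and the dotted line the lowest total of a deposited cell. Melanocytes (coloured, 22 and 56) sit at the low-UMI edge of both libraries, close to the dotted lines at 10065 and 8776 UMIs.

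The deposited cells began at different depths, and the share moved with that edge. The lowest cell had 10065 UMIs in wild type and 8776 in knockout. Below 10065 UMIs lay 74 knockout cells, and 27 of them (36.5%) were melanocytes. With cells of at least 10065 UMIs in both libraries, 22 of 1926 (1.14%) stood against 29 of 1686 (1.72%), a ratio of 1.51 (0.836 to 2.75) whose interval includes 1. From 10065 to under 12000 UMIs the shares were 14.8% (17 of 115) and 17.6% (12 of 68). At 12000 UMIs and above they were 0.276% (5 of 1811) and 1.05% (17 of 1618), a ratio of 3.81 (1.35 to 13.2). No label says how cells were called, and cells below each edge were not analysed here.

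**Figure D2:**
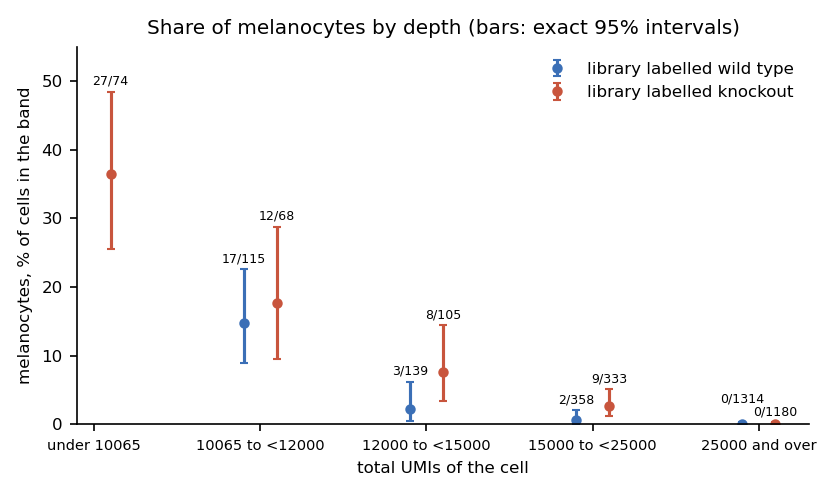
Melanocytes as a percentage of the cells in each band of total UMIs, with exact 95% intervals and the counts above each point. In both libraries the share drops from band to band, from 14.8% to 0.559% in wild type and from 36.5% to 2.70% in knockout below 25000 UMIs.

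At equal depth these cells had about as many detected genes as the rest. Detected genes had medians of 3784 and 3455.5 per melanocyte. After each cell was thinned to 8000 UMIs, the medians were 3112.5 and 2994, beside 2968.5 and 2967.5 in the other cells. Mitochondrially encoded RNA had medians of 1.37% and 1.23% of UMIs, and exceeded 10% in 1 wild-type melanocyte (17.6%) and 2 knockout melanocytes (14.1% and 12.7%). The 2 libraries shared 3 cell barcodes, none of them a melanocyte's.

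The genes that chose the cells are given as a description. Their sum ran from 21108 CPM through a median of 60192.5 to 95655 in wild-type melanocytes, and from 20166 through 65120 to 94801 in knockout melanocytes. The rule set the lower end in both libraries, and the upper ends lay close together. Just inside the limit lay sums of 21108 and 37147 CPM in wild type and 20166, 21946 and 23834 in knockout. Just outside lay 18888 and 17613 CPM in wild type and 17321 and 14283 in knockout. The median of the other cells was 217 and 206 CPM. Between 10000 and 20000 CPM there were 9 wild-type and 6 knockout cells, which are not counted as melanocytes here. The 22 and 56 melanocytes held 40.3% and 66.8% of all UMIs of these genes in their libraries.

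Single rule genes varied several-fold among melanocytes. Dct ran from 5961 through a median of 21608 to 35083 CPM in wild type and from 3391 through 20934 to 35084 in knockout. Tyrp1 ran from 9756 through 15297 to 21846 and from 5221 through 17070 to 30119. Cells high in Dct tended to be high in Pmel, a structural protein of the melanosome: Spearman's rho was 0.73 over 22 and 0.76 over 56 cells. Dct and Mlana, a small melanosomal membrane protein, were less alike, with rho of 0.23 and 0.41. Points share a library, and the values are shares of 1 total. Dct, Pmel and Mlana were also summed to choose the cells, so these are descriptions. The sum of the rule genes had rho of -0.09 and -0.29 with total UMIs, 0.26 and 0.53 with Tyr, and -0.02 and 0.34 with Mitf.

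Markers outside the rule gave the same identity in most of these cells. Tyr (gene 22173, chr7:87424771-87493512) ran from 184 through a median of 786 to 1680 CPM in wild-type melanocytes and from 0 through 738 to 1954 in knockout ones, against pooled levels of 5.94 and 6.86 CPM in the other cells. All 22 wild-type and 54 of 56 knockout melanocytes had a Tyr UMI. After thinning to 8000 UMIs, the shares with a UMI were 100% (22 of 22) and 96.4% (54 of 56), against 4.88% and 4.75% of the other cells. Sox10, a neural crest transcription factor, was seen in 22 and 54 melanocytes, Pax3 in 21 and 55, Mitf in 20 and 46, and Ednrb, the endothelin receptor of the lineage, in 17 and 49. Kit, the receptor for stem cell factor, was seen in 12 and 27 cells, with medians of 72.7 and 0 CPM.

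Markers of other skin cells were low in melanocytes, apart from the Schwann and neural crest list. Of the fibroblast list, Col1a1, Col1a2, Col3a1, Lum and Pdgfra had 0 UMIs in both libraries, and the list summed to 7.66 and 9.27 CPM. The T cell and mast cell lists summed to 0, and the myeloid list to 23.0 and 7.73 CPM. Among Schwann cell genes, Mbp, Egr2, Sox2, Gfra3 and Dhh were at 0 in both libraries. The Schwann and neural crest list as a whole summed to 965 and 850 CPM, with 7 and 6 of its 18 genes at 0. That is 1.44 and 1.43 times the other cells, with 4 and 3 genes at least 2-fold over them. Among its expressed members, Fabp7 stood at 72.8 and 15.5 CPM, the neurotrophin receptor Ngfr at 46.0 and 12.4 CPM, and the transcription factor Sox9, lower than in the other cells, at 80.4 and 125 CPM. These genes held a minor part of the sum. The genes that held the rest are not named here, so the sum alone does not tell glial RNA from RNA that melanocytes share. Per cell the sum had medians of 892 and 790 CPM and highest values of 4007 and 2449 CPM. The cell at 4007 CPM had the lowest rule sum of the wild-type melanocytes, 21108 CPM. It held 0 CPM of Mitf, Kit, Ptgds, Slc45a2 and Cited1, but 195 CPM of Tyr and 13095 CPM of Gpnmb.

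Keratin RNA was present in nearly every melanocyte, at a small fraction of its level in the other cells. In wild-type melanocytes Krt14, Krt17 and Krt18 stood at 7.94%, 7.92% and 7.95% of their levels in the other cells. Krt5 stood at 12.7% and Krt6a at 7.07%. In knockout melanocytes Krt17 and Krt18 stood at 7.76% and 7.89%. Krt14 stood at 37.4% there, because 1 cell held 82.6% of its UMIs. That cell lay just inside the limit, with 20166 CPM of the rule genes and 56476 CPM of Krt5 plus Krt14. It held 0 CPM of Tyr, Mitf, Sox10 and Kit, but 180 CPM of Ednrb, 3781 CPM of Ptgds and 2221 CPM of Gpnmb. These markers give it no clear identity, and it stays in the pooled knockout values. Over all cells, Krt5 plus Krt14 ran from 287 through 570 to 886 CPM in wild-type and from 0 through 338 to 56476 CPM in knockout melanocytes. Doublets were not removed. An upper limit on Krt5 plus Krt14 was set at the 10th percentile of the other cells of the same library, 1201 CPM in wild type and 638 CPM in knockout. No wild-type and 6 knockout melanocytes exceeded it, and 5 of these 6 held 641 to 759 CPM, inside the wild-type range. Without the 6 cells the knockout share was 2.84%.

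Genes beside the rule's own with the largest excess over the other cells were ranked by the smaller of the 2 libraries' ratios, and the 20 highest are named. They were pigment genes (Slc45a2, Tyr, Gpnmb, Slc24a5, Tspan10, Rab38), the regulators Mitf and Cited1, and 12 genes of other kinds. Syt4, a synaptotagmin of vesicle membranes, led with 1452 and 2114 CPM, 232 and 219 times the other cells. Dnaic1, a dynein chain known from cilia, stood at 391 and 445 CPM, 236 and 188 times the other cells. Ptgds, prostaglandin D2 synthase, stood at 6078 and 5176 CPM, and Mgll, monoglyceride lipase, at 2513 and 2622 CPM. The secreted or lipid-linked proteins Apoe (2333 and 2690 CPM), Selenop (1222 and 1163 CPM), Enho (440 and 579 CPM), Lgals3bp (942 and 654 CPM) and Gpx3 (582 and 457 CPM) followed. Emp3, Chchd10 and Cdk2 complete the 20. Cdk2 (chr10:128697938-128705051) lies inside the annotated span of Pmel (chr10:128695888-128720238), so its 502 and 525 CPM are uncertain. The spans of Dnaic1 (chr4:41569647-41638158) and Enho (chr4:41638144-41640302) also overlap, so the counts of both are uncertain. Slc24a5, Mgll, Selenop and Chchd10 overlap less expressed genes, and whether the counting used strand is not stated in the sources used here. In all, 518 of 3086 genes with at least 50 UMIs (16.8%) were at least 2-fold higher than in the other cells in both libraries, and 149 (4.83%) at least 2-fold lower. Levels of different genes are tag counts not scaled by length and are not compared with each other.

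Gpx3, a secreted glutathione peroxidase, was unevenly spread. It was seen in 19 of 22 wild-type and 22 of 56 knockout melanocytes, with medians of 191 and 0 CPM and highest values of 3274 and 5841 CPM. After thinning, 72.7% (49.8 to 89.3) and 35.7% (23.4 to 49.6) of melanocytes had a UMI, against 13.1% and 8.04% of the other cells. The pooled level differed less, at log2 -0.35 (-0.64 to -0.06), and 1 cell held 22.4% of the wild-type and 1 cell 20.9% of the knockout UMIs.

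Between the libraries, pooled UMIs of the melanocytes were compared as CPM, and log2 ratios are knockout over wild type. The median over 5772 genes with at least 20 UMIs was 0.03, beside 0.05 for the same genes in the other cells. At 1.5-fold, 14.7% of them were higher and 12.4% lower in knockout melanocytes, and 2.3% and 7.07% in the other cells, whose totals are far larger. List counts at 1.5-fold given below are to be read against these shares. At 2-fold, among 3086 genes with at least 50 UMIs, 57 (1.85%) were higher and 56 (1.81%) lower. Pooled melanocyte UMIs were 261089 and 647205, so the wild-type side has the wider counting error. The other cells include 9 wild-type and 6 knockout cells with 10000 to 20000 CPM of the rule genes. A further 5 and 11 had 5000 to 10000 CPM. For pigment-cell genes, ratios in the other cells are therefore not those of keratinocytes alone. How much such cells add to them was not tested.

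Tyr, the 1 melanin enzyme that the rule did not use, stood at 827 and 791 CPM, a log2 ratio of -0.06 (-0.30 to 0.17). Tyrp1 and Dct, which the rule used, had 0.17 and -0.13, given as a description.

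Among proteins of the melanosome matrix and membrane, 1 of 6 measured genes was beyond 1.5-fold higher and 1 lower, with a median of 0.23. Of these 6, Pmel and Mlana were used by the rule and are counted as a description. Gpnmb (chr6:49036518-49058182), a glycoprotein related to Pmel, ran from 3036 through a median of 11074 to 18435 CPM in wild-type melanocytes and from 2221 through 5751 to 17892 in knockout ones. The ranges overlapped, and the lower pooled level of 6561 against 10755 CPM gave log2 -0.71 (-0.78 to -0.64). The other cells, which include cells just under the rule's limit, had -0.78, at 63.5 against 109 CPM. Cd63, the tetraspanin of late endosomes and melanosomes, was higher at 6225 against 4091 CPM, log2 0.61 (0.51 to 0.70), and the other cells had 0.80.

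Of 4 measured melanosome transporters, which supply ions and solutes, 1 was above 1.5-fold and 0 were below, and the median was 0.33, beside 0.34 in the other cells. Oca2 (chr7:56239593-56536518), an anion transporter that raises melanosomal pH, ran from 0 through a median of 327 to 969 CPM in wild type and from 0 through 600 to 1337 in knockout. Its log2 ratio was 0.91 (0.57 to 1.26). A UMI was found after thinning in 77.3% (54.6 to 92.2) and 96.4% (87.7 to 99.6) of melanocytes, against 2.57% and 4.17% of the other cells. Slc45a2 had 0.45 (0.26 to 0.65) and Slc24a5 0.21 (0.08 to 0.35).

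Genes that build and move melanosomes stayed near the middle. Of 12 biogenesis genes, 1 was higher and 0 lower, with a median of 0.01 (-0.28 among cells of at least 10065 UMIs), and of 4 transport genes none was beyond 1.5-fold, with a median of 0.24. Rab38, a small GTPase that sorts tyrosinase and Tyrp1, had 1168 and 1601 CPM, log2 0.45 (0.27 to 0.64). Mlph, the adaptor that ties melanosomes to myosin 5a, had 398 and 550 CPM, log2 0.47 (0.15 to 0.80). In the other cells these 2 genes had log2 ratios of the opposite sign, -0.76 and -0.56.

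**Figure D3:**
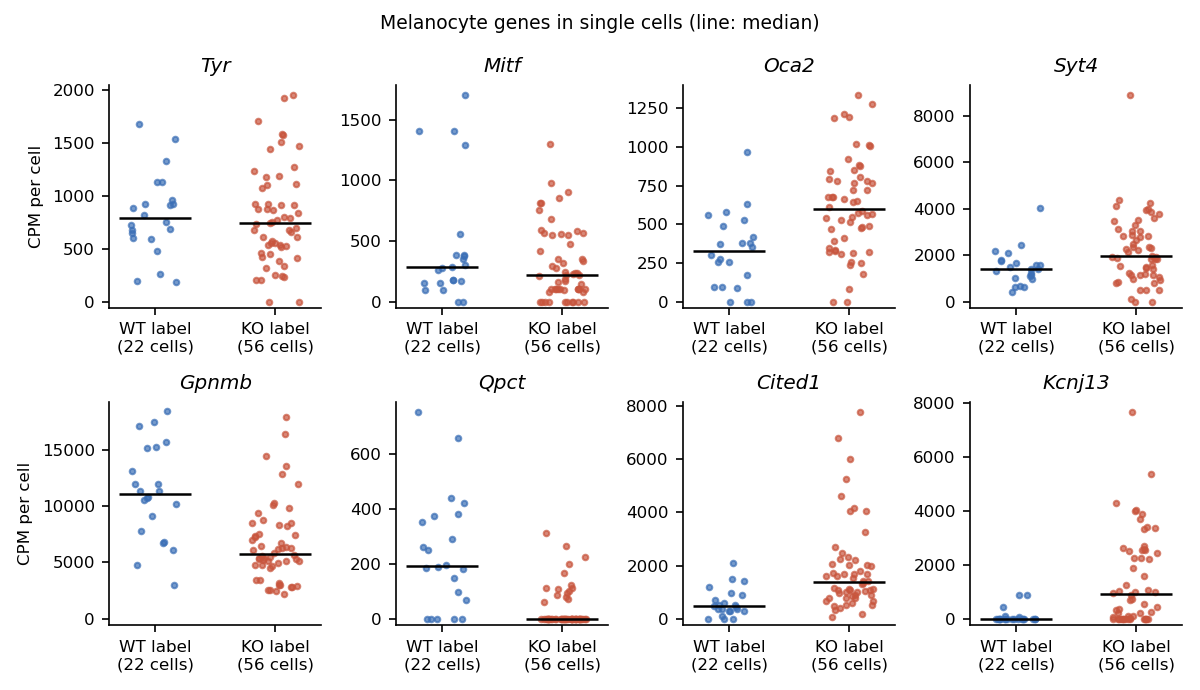
CPM per melanocyte (linear axes) for 8 genes in the libraries labelled wild type (22 cells) and knockout (56 cells), with the median as a line and points spread sideways at random. Tyr has close medians (786 and 738 CPM); Kcnj13, Cited1 and Oca2 have higher and Gpnmb and Qpct lower medians in the library labelled knockout, with overlapping cells in every panel.

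Of 9 measured melanocyte transcription factors, 2 were higher and 4 lower at 1.5-fold, with a median of -0.31, beside -0.39 in the other cells. The shares over all genes were 14.7% higher and 12.4% lower. Mitf, Sox10, Pax3 and Zeb2, described next, are not among the 2 higher factors. Mitf (chr6:97807002-98021360) ran from 0 through a median of 281 to 1705 CPM in wild type and from 0 through 217 to 1296 in knockout. Its pooled level was 463 against 300 CPM, log2 -0.63 (-0.96 to -0.29). The medians stood closer than the pooled levels, and 1 wild-type cell held 21.5% of the Mitf UMIs. Sox10 and Pax3 had -0.16 (-0.49 to 0.18) and 0.09 (-0.25 to 0.44). Zeb2, a zinc finger factor of melanocyte differentiation, had 21 and 22 UMIs, log2 -1.24 (-2.17 to -0.31). Of 6 receptors, 0 were higher and 2 lower, with a median of -0.37 that was 0.07 with a minimum of 100 UMIs, which leaves fewer genes. Kit had -0.43 (-1.16 to 0.33) and Ednrb 0.07 (-0.35 to 0.50), and neither is among the 2 lower receptors.

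The gene named by rule with the highest ratio was Kcnj13 (gene 100040591, chr1:87384577-87394729), an inwardly rectifying potassium channel known for pigment patterns of fish. It ran from 0 through a median of 0 to 896 CPM in wild-type melanocytes and from 0 through 915 to 7673 CPM in knockout ones. A UMI was present in 5 of 22 and 42 of 56 cells, and after thinning in 18.2% (5.19 to 40.3) and 73.2% (59.7 to 84.2), against 1.52% and 7.63% of the other cells. With 29 and 913 UMIs the levels were 111 and 1411 CPM, 12.7 times higher (8.78 to 19.1), log2 3.67 (3.13 to 4.25). Its log2 ratio was 4.32 after the highest cell on either side was left out, and 1 wild-type cell held 41.4% of the UMIs. The other cells had 2.04 and 10.8 CPM, log2 2.41 (2.16 to 2.67), and the melanocytes held 15.5% and 56.7% of all Kcnj13 UMIs. Cells just under the rule's limit count among the other cells. Kcnj13 lies inside the annotated span of Gigyf2 (chr1:87326931-87450810), which stood at 23.0 and 23.2 CPM in melanocytes.

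Cited1 (chrX:102247378-102252181), a transcriptional co-regulator, was the 1 gene of the 20 with the largest excess over the other cells that lay beyond 2-fold. Genes of the sex chromosomes were left out of the ranking between the libraries, so it is not among those named there. It ran from 0 through a median of 472 to 2114 CPM in wild type and from 60.0 through 1381 to 7764 in knockout, and was seen in 19 of 22 and 56 of 56 cells. The ratio was 2.93 (2.48 to 3.47), log2 1.55 (1.31 to 1.79), and the other cells had 1.63, at 5.06 and 15.6 CPM. Syt4 had 0.54 (0.38 to 0.71), beside 0.63 in the other cells. For both genes the other cells include cells just under the rule's limit, so the 2 ratios are not from fully separate cell types.

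In all, 29 genes met the rule for a named higher gene and 43 for a lower one, and the 12 most extreme of each were taken. The rule asked for 2-fold, an interval that excludes 1, a level at least that of the other cells, UMIs in at least 5 melanocytes of the higher library and at most 50% of them in 1 cell. Besides Kcnj13, the higher genes were Csad, Rab35, Afg3l1, Nsfl1c, Ppie, Ephx1, Atp6v0a1, Dapk3, Ddx41, Nosip and Naglu. These 11 had between 5 and 22 wild-type UMIs, so each ratio is wide. The spans of Csad and Nosip overlap those of Zfp740 and Prrg2, and among the lower genes those of Pclaf, Prc1 and Tk1 overlap Trip4, Rccd1 and Afmid, so their counts are uncertain. Csad, which makes the taurine precursor hypotaurine, had 5 and 51 UMIs, log2 2.04 (0.72 to 3.72), and 2.66 without the top cells. Rab35, a GTPase of endosome recycling, had 5 and 45 UMIs, log2 1.86 (0.53 to 3.55). Nosip had 1.31 (0.14 to 2.71), and 0.29 among cells of at least 10065 UMIs. Atp6v0a1, a membrane subunit of the proton pump, and Naglu, a lysosomal enzyme of heparan sulfate breakdown, are neighbours on chromosome 11 (101009422 to 101063719 and 101070090 to 101077672). They had log2 ratios of 1.47 (0.39 to 2.75) and 1.30 (0.64 to 2.02), and -0.87 and -0.38 in the other cells.

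Of the 12 lower genes, 6 belong to cell division (Ube2c, Top2a, Prc1, Birc5, Pclaf, Tk1) and 6 do not (Qpct, Lgals9, Spp1, Serpine2, Bzw2, Crip1). Qpct (chr17:79051906-79090378), glutaminyl cyclase, ran from 0 through a median of 193 to 755 CPM in wild-type melanocytes and from 0 through 0 to 315 in knockout ones. After thinning, a UMI was found in 77.3% (54.6 to 92.2) and 23.2% (13.0 to 36.4) of cells, against 5.09% and 2.99% of the other cells. The pooled level was 6.25 times lower (3.87 to 10.4), log2 -2.64 (-3.37 to -1.95). Lgals9, the glycan-binding protein galectin-9, had 142 and 26.3 CPM, log2 -2.43 (-3.35 to -1.57), and was seen in 18 of 22 and 12 of 56 cells. The log2 ratio in the other cells was -1.10 for Qpct, -1.18 for Lgals9 and -2.42 for Crip1, but 0.15 for Bzw2.

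Secreted proteins Spp1 (osteopontin) and Serpine2 (a protease inhibitor) were lower in knockout melanocytes and higher in the other cells of that library. Serpine2 had medians of 338 and 0 CPM and pooled levels of 437 and 107 CPM, log2 -2.03 (-2.49 to -1.59). It had -1.50 among cells of at least 10065 UMIs and -2.89 among cells of at least 40000 CPM of the rule genes. Spp1 had 858 and 189 CPM, log2 -2.19 (-2.52 to -1.86), but its medians were 132 and 82.8 CPM, and 1 wild-type cell held 37.1% of its UMIs there. The other cells had 0.52 for Serpine2 and 0.48 for Spp1.

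RNA of the cell division genes was lower in knockout melanocytes, and it came from few cells. Of 28 measured G2 and M phase genes, 21 were lower at 1.5-fold and 0 higher, with a median of -1.52, beside -1.47 in the other cells. Among all genes measured in melanocytes, 12.4% were lower. The S phase list had 24 measured genes, of which 15 lay lower and 0 higher; its median was -0.64, beside -0.34. Per cell, the G2 and M list summed to medians of 1075 CPM in wild type, from 94.1 to 18871, and 910 CPM in knockout, from 112 to 13518. At least 2000 CPM of the list was found in 5 of 22 and 3 of 56 melanocytes, and at least 1000 CPM in 12 and 22. Ube2c, a ubiquitin-conjugating enzyme of mitosis, was seen in 7 and 4 cells, and 1 cell held 42.4% and 66.7% of its UMIs.

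Depth moved with this result. The list's sum had rho of 0.61 over 22 and 0.48 over 56 cells with total UMIs, and the median depth of the cells at 2000 CPM or above was 13248 and 16348 UMIs. Among cells of at least 10065 UMIs the median of the G2 and M genes was -0.90 (over fewer genes, -0.60 with a minimum of 100 UMIs), with Ube2c at -1.74, Top2a at -1.73, Birc5 at -1.33, Prc1 at -1.41, Pclaf at -1.04 and Tk1 at -1.05. The part of depth in the rest of the difference was not tested. By the way they were chosen, these cells also hold pigment RNA; the median of the rule genes was 49206 CPM in the 5 wild-type and 43749 CPM in the 3 knockout melanocytes at 2000 CPM or above.

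**Figure D4:**
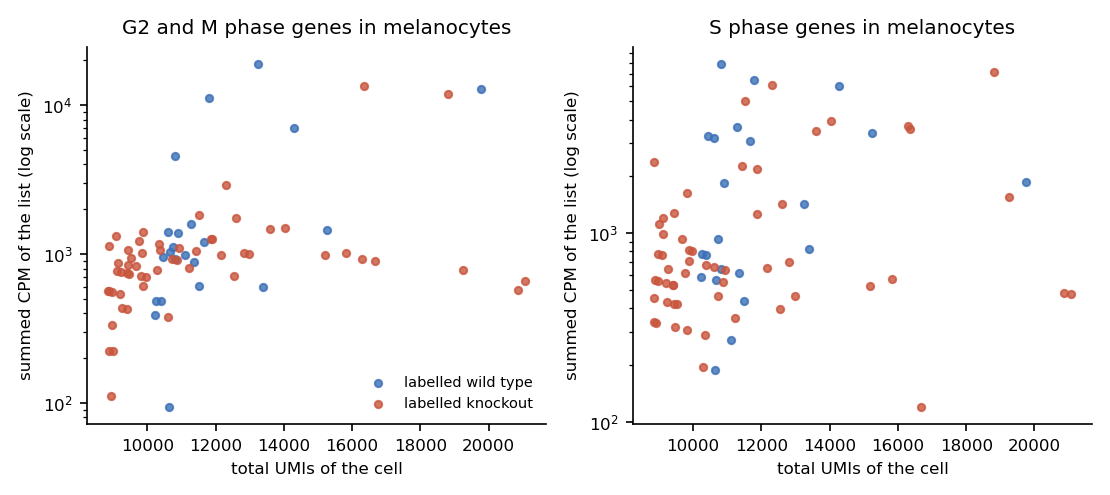
Summed CPM of the G2 and M phase list (left) and the S phase list (right), log axes, against total UMIs, 1 point per melanocyte. The G2 and M sum reaches 18871 CPM in wild type and 13518 CPM in knockout, and the cells at 2000 CPM or above start at 10808 and 12311 UMIs.

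The vacuolar ATPase acidifies lysosomes and melanosomes, and 5 of its 15 measured subunits were higher at 1.5-fold and 0 lower, with a median of 0.32, beside 0.07 in the other cells. Over all 5772 genes, 14.7% were higher and 12.4% lower in melanocytes. Its sum ran from 4256 through a median of 5541 to 7356 CPM in wild-type melanocytes and from 3301 through 7198 to 11243 in knockout ones. Atp6v1f, a subunit of the catalytic sector, had medians of 163 and 434 CPM and log2 1.21 (0.77 to 1.68). Atp6v1g1 had 0.85 (0.39 to 1.35) and Atp6v1a 0.69 (0.20 to 1.21). Lysosomal enzymes and membrane proteins had 1 of 22 higher and 1 lower and a median of 0.06. The protease Ctsl was the lower one, at 1333 and 706 CPM, log2 -0.92 (-1.12 to -0.71). Hexa, a hexosaminidase subunit, had 0.55 (0.32 to 0.78).

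Class I antigen presentation genes were at close levels in melanocytes of both libraries. The 8 measured ones had 0 beyond 1.5-fold and a median of 0.15, with B2m at 6343 and 6284 CPM, and -0.44 in the other cells. Of 9 interferon response genes, 0 were higher and 3 lower, with a median of -0.23, beside -0.63. Isg15, a ubiquitin-like protein induced by interferon, had 34 and 12 UMIs, log2 -2.81 (-3.90 to -1.83), and was seen in 12 of 22 and 6 of 56 cells. Of 13 genes of the integrated stress response, 3 were higher and 0 lower, with a median of 0.24, beside 0.27. The share of all genes that were higher was 14.7%, and 12.4% were lower. Nupr1, a stress-induced nuclear protein, had 0.96 (0.41 to 1.55).

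Lists of cell death genes had positive medians on both sides. Of 6 anti-apoptotic genes 2 were higher and 0 lower, with a median of 0.42, and of 8 pro-apoptotic genes 3 were higher and 0 lower, with a median of 0.39. Over all genes 14.7% were higher and 12.4% lower, and lists this short rest on few genes. Bcl2, a survival gene of melanocytes, had 0.25 (-0.45 to 1.00), Bcl2l1 0.76 (0.03 to 1.57), Mcl1 0.58 (-0.46 to 1.75), and the death effector Bax 0.24, with an upper bound of 0.50. Pmaip1 had 0.95 (-0.11 to 2.17), with 53.5% of its knockout UMIs in 1 cell. Of these intervals, that of Bcl2l1 lies above 0. The 11 p53 targets and CDK inhibitors had 2 higher, 2 lower and a median of 0.20, or -0.02 with equal weight per cell.

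**Figure D5:**
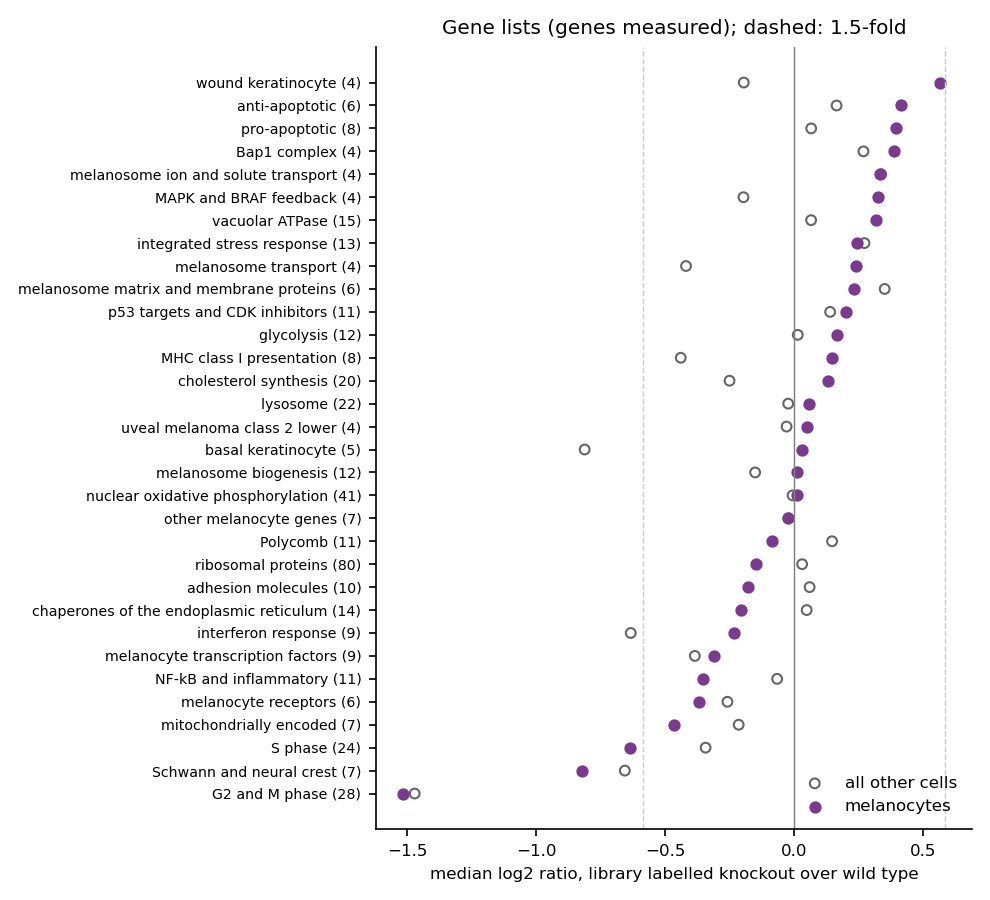
Median log2 ratio, knockout over wild type, of each gene list with at least 4 measured genes (number in brackets) in melanocytes (filled) and in all other cells (open); dashed lines mark 1.5-fold. The G2 and M list lies lowest in both, at -1.52 and -1.47, and the vacuolar ATPase lies at 0.32 in melanocytes and 0.07 in the other cells.

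Genes of chromatin complexes gave few counts. The Bap1 complex had 4 measured genes, 2 higher and 0 lower, with a median of 0.39 that was -0.07 among cells of at least 40000 CPM of the rule genes. Of 11 Polycomb genes 3 were higher and 2 lower, with a median of -0.09, and 0.07 without the top cell of each gene. All genes together had 14.7% higher and 12.4% lower. None of 39 Hox genes reached 20 UMIs. Gene sets known from uveal melanoma, in which BAP1 loss is frequent, were near 0 or rested on 1 cell: the 4 measured genes that are lower in class 2 tumours had a median of 0.05, and Ecm1, 1 of the higher genes, had log2 1.28 with 60.9% of its knockout UMIs in 1 cell.

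The Schwann and neural crest list had 7 measured genes, 2 higher and 4 lower, with a median of -0.82, beside -0.66 in the other cells, and -0.30 without the 6 knockout melanocytes above the keratin limit. It was 0.30 with a minimum of 100 UMIs, which leaves fewer genes. Of the list's sum, 1 wild-type melanocyte held 4007 CPM, against a wild-type median of 892 CPM. Fabp7, a fatty acid binding protein of early glia, had 19 and 10 UMIs and log2 -2.24 (-3.50 to -1.06), and Cdh19, a cadherin of crest-derived glia, had 2 and 23 UMIs. Of the adhesion molecules, 2 of 10 were higher and 3 lower, with a median of -0.18, and 0.04 among cells of at least 10065 UMIs. Housekeeping groups stayed close to 0: 41 nuclear genes of oxidative phosphorylation had a median of 0.01 and 80 ribosomal protein genes -0.15. The 7 mitochondrially encoded genes had -0.47, and 0.10 without the top cell of each gene.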

How the data were processed

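Single-cell RNA of 2 cultures was compared, 1 library per group. The authors deposited whole-number UMI counts of NCBI gene identifiers by cell. Per the labels' protocols, libraries used the Chromium Single Cell 3′ v2 kit, with about 6000 viable cells loaded each. The submitters' processing notes name mm10, Cell Ranger 2.1 and Seurat 2.0 without their roles. No source used here states how cells were called, whether intronic reads counted or whether doublets were removed.

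The libraries held 77579465 and 64954113 UMIs. Of 36528 identifiers, 31049 matched a symbol of the RefSeq table (GRCm38.p6, which also gave coordinates). The 5479 without a match, which held 2.67% of UMIs, counted only towards totals. No cell was removed and no doublet caller was run; melanocytes above a keratin limit were left out as an alternative. CPM, ratios and exact intervals (Clopper-Pearson for shares, conditional exact for ratios, 95%) were computed with Python 3.11.15, numpy 2.4.6, scipy 1.17.1 and pandas 2.3.3, and figures with matplotlib 3.10.9. The code was tested on simulated data. A level of 0 UMIs was set to a floor of 3 in ratios.

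The melanocytes and the 43 gene lists were chosen with earlier results of these data known. Genes were named by rule: the 20 with the highest ratio to the other cells in both libraries (at least 100 UMIs in each), and up to 12 per direction between the libraries, sex chromosome genes left out. Genes of the lists are also given, and those picked out of a list were chosen after their values were seen. List genes needed 20 UMIs over both libraries. Alternatives were other rule levels, each rule gene left out, cell filters, a common UMI minimum, equal weight per cell, 2 scalings, other UMI minimums and the top cell of each gene left out. Leaving out melanocytes above 10% mitochondrial UMIs was added after seeing the data.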

Additional observations from a re-analysis of the deposited data

Results flagged for a closer look

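Named genes whose ratio had one sign in melanocytes and the other in the remaining cells, with both intervals on their own side of 0, were picked out. With 1 library per group the difference between melanocytes and other cells was not tested. In melanocytes the log2 ratio, knockout over wild type, was positive for Apoe (0.21), Rab38 (0.45), Naglu (1.30) and Atp6v0a1 (1.47), and in the other cells these had -0.69, -0.76, -0.38 and -0.87. It was negative for Ptgds (-0.23), Bzw2 (-1.64), Serpine2 (-2.03) and Spp1 (-2.19), and in the other cells these had 0.12, 0.15, 0.52 and 0.48. The 4 positive genes encode an apolipoprotein, a melanosome GTPase, a lysosomal enzyme and a proton pump subunit. Melanocytes held 10.0% and 38.2% of the Apoe UMIs of their libraries, but 1.00% and 0.508% of those of Serpine2.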

How the results depend on the processing

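No paired analysis was possible because each group has 1 library. The melanocyte share labelled knockout was 1.72%, and its ratio to wild type 1.51, with a common minimum of 10065 UMIs; the other 25 share values stayed within their intervals. Genes at least 2-fold higher numbered 57 of 3086 (1.85%), and 37 among cells of at least 40000 CPM. They numbered 314 of 5772 with a minimum of 20 UMIs, and 20 of a smaller set with a minimum of 100. With the top cell of each gene left out they numbered 118. Leaving it out takes a larger part of the 22 wild-type cells by construction. Genes 2-fold lower numbered 56 of 3086 (1.81%), 279 of 5772 with a minimum of 20 UMIs, and 17 with a minimum of 100. The number of genes measured differs between these settings, so the bare counts are not compared. Lists with a median beyond 1.5-fold numbered 3 of 33, 6 among cells of at least 40000 CPM and 5 without the top cells. The Schwann and neural crest median turned from -0.82 to 0.30 with a minimum of 100 UMIs, which leaves fewer genes. Of the other list medians under alternatives, 37 moved by at least 0.2 on the log2 scale and 289 did not. Some of these also crossed 0. The wound keratinocyte median of 0.57 fell as low as -0.48. The basal keratinocyte median of 0.03 ranged from -0.86 to 0.98. The cause of the other changes was not tested. For the 24 genes named between the libraries, 232 alternative values stayed within the counting interval, 8 did not, and none changed sign. Wild-type melanocytes held 261089 UMIs, so genes under 50 UMIs have wide ratios, and 1 library per group leaves variation between cultures unmeasured.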

Other observations

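Summed levels of further gene groups are given beside the other cells of the same library. The summed level of cholesterol synthesis genes was 2233 and 2356 CPM in melanocytes, 1.82 and 2.11 times the other cells, and that of lysosomal genes 12934 and 13496 CPM, 2.13 and 2.51 times. Chaperones of the endoplasmic reticulum summed to 6833 and 5610 CPM, 2.12 and 1.63 times the other cells. Nuclear genes of oxidative phosphorylation summed to 29607 and 30191 CPM, 1.31 and 1.31 times, and glycolysis genes to 4730 and 5328 CPM, 148.2% and 149.7% of the level in the other cells. Class I antigen presentation genes summed to 8541 and 8657 CPM, 3.39 and 4.47 times. Ribosomal protein genes stood lower, at 0.677 and 0.600 times the other cells, and p53 targets and CDK inhibitors at 0.338 and 0.300 times. S phase genes summed to 2271 and 1391 CPM, 3.34 and 2.65 times the other cells, whose pooled levels were 681 and 525 CPM. Per melanocyte their medians were lower, at 1183 and 653 CPM, with highest values of 7865 and 7123 CPM. Slc7a5, an amino acid transporter, stood at 180 and 264 CPM, 13.0 and 16.2 times the other cells. These sums are shares of each cell's RNA, and the pigment genes take 5.99% and 6.01% of melanocyte UMIs.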
